A study of Mus musculus with 12 samples.

Results

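Collagen chain genes encode the alpha chains that wind in threes into the collagens of fibrils, basement membranes and filaments. They were taken here as every gene with a probe set whose single symbol has the form Col, number, a, number, apart from Col17a1, and each gene was represented by its probe set of highest mean log2 signal. This gave 41 of the 18193 genes with a probe set of 1 symbol, measured by 81 of 45037 probe sets. The rule used no difference between groups, but it was set with earlier results of these data known. The members were 11 fibrillar chains, 6 type IV chains of the basement membrane network, 3 other chains of the basement membrane zone, 5 type VI chains, 9 fibril-associated chains, 3 hexagonal network chains, 3 transmembrane chains and Col26a1.

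RNA came from epithelial cells of the prostate of male C57BL/6 mice, in 12 samples on 1 Affymetrix array each. At 8 weeks of age the mice underwent surgical castration or stayed intact, and prostates were removed 4 weeks after that. Cells were sorted by surface antigens: luminal cells were Lin- CD49f(lo) EpCAM+ and basal cells were Lin- CD49f(hi) EpCAM+, where CD49f is integrin alpha 6, EpCAM is an epithelial adhesion protein and Lin stands for markers of other lineages. Luminal and basal cells of intact and of castrated mice made 4 groups with 3 biological replicates each. How many mice stood behind a replicate is not given in the sources used here. The labels were checked against lineage markers: 11 of 11 basal epithelial markers were lower in luminal than in basal cells in both intact and castrated mice, and the luminal signal of Krt5, a basal keratin, was 1.08% of the basal signal in intact and 0.136% in castrated mice. Of 9 luminal epithelial markers, 7 were higher in luminal cells of intact and 6 of castrated mice, and none was lower. Their summed signal was 218512 to 242037 on intact luminal, 139779 to 178092 on castrated luminal, 81814 to 91287 on intact basal and 101811 to 126751 on castrated basal arrays.

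Fibrillar collagens I, III and V are made chiefly by fibroblasts and smooth muscle of the stroma and form the banded fibrils of connective tissue. Type IV collagen is the network of basement membranes, and its 6 chains assemble into 3 kinds of trimer: alpha 1 with alpha 2, alpha 3 with 4 and 5, and alpha 5 with 6. Epithelial, endothelial and mural cells all deposit type IV collagen, and basal cells of the prostate rest directly on the basement membrane. Collagens VII, XV and XVIII sit at the junction of the basement membrane with the stroma, where VII forms anchoring fibrils.

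Signal is given in MAS5 units, scaled on each array to a trimmed mean of about 500. A probe set was called dim on an array when it lay below the 40th percentile of that array, which corresponded to signals of 33.3 to 61.1, and 35 of the 41 members exceeded this level on at least 3 arrays and were tested. The other 6 (Col6a5, Col9a1, Col10a1, Col11a1, Col13a1 and Col24a1) never exceeded a signal of 81.7. Among luminal cells, 14 members lay above the dim level on all 3 intact arrays and 8 on all 3 castrated arrays; among basal cells, 20 and 15 did. Col4a5, Col4a6, Col7a1 and Col18a1, 4 members in all, did so on all 12 arrays. Differences below are on the scale of log2(signal + 16), which understates changes of dim genes.

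**Figure D1:**
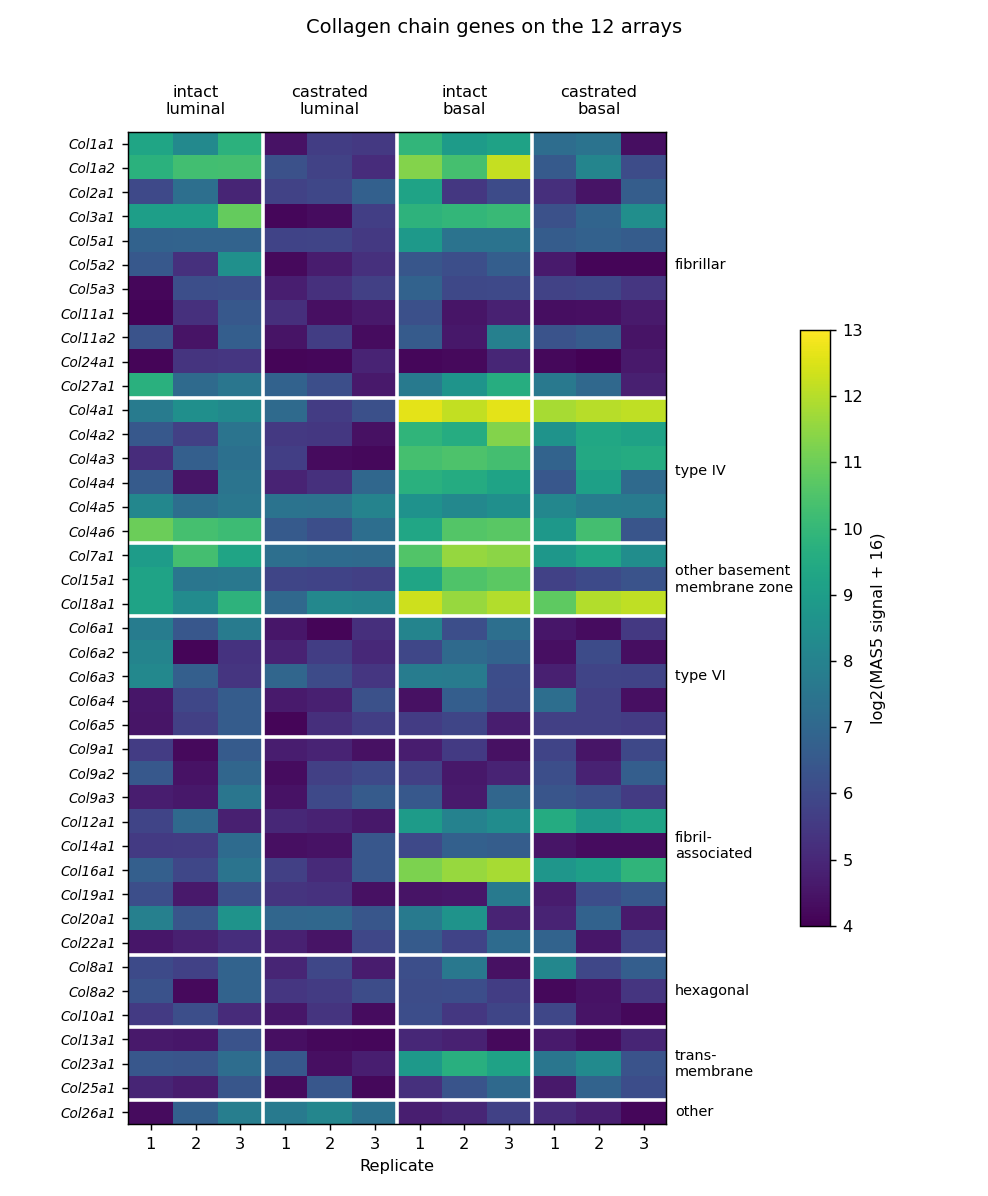
The heat map shows log2(MAS5 signal + 16) of the 41 collagen chain genes (rows, by class) on the 12 arrays (columns, 3 replicates per group). The fibrillar chains Col1a1, Col1a2 and Col3a1 are brighter in both intact groups than in both castrated groups, and the fibrillar chain Col24a1 is dark throughout. Col4a1, Col18a1 and Col16a1 are bright in basal arrays.

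After castration 8 of the 35 tested members were lower in luminal cells and none was higher, where of all 14645 tested genes 5.86% were called, 2.96% lower and 2.90% higher. In basal cells 6 were lower and none higher, against 1.50% of all genes called lower and 1.12% higher. The median log2 difference over the 35 members was -1.01 in luminal and -1.45 in basal cells, and over all tested genes it was -0.09 and -0.11. At an unadjusted p under 0.05 in the same limma fit, still no member was higher in either cell type, while 14 and 16 were lower. Col1a1, Col1a2, Col3a1, Col7a1 and Col15a1 were called in both cell types, which is 62.5% of the luminal and 83.3% of the basal calls. Between cell types, 10 members were lower in luminal than in basal cells of intact mice and none higher (8.45% and 11.0% of all genes), and none was higher at an unadjusted p under 0.05 either. In castrated mice 9 were lower in luminal cells and 1, Col26a1, was higher (7.22% and 11.2% of all genes, 18.4% in either direction). The members that passed in these comparisons had 24 further comparisons by probe sets above the dim level on at least 3 arrays. Of these, 23 ran in the same direction and 20 passed by themselves. In sorted bulk samples, fewer cells of a type and less RNA per cell cannot be told apart. With the mean level of 16 fibroblast markers of each array as a covariate, the counts of called members were 0 in both castration comparisons, 3 between the intact and 2 between the castrated cell types. Without castrated luminal replicate 1 or any 1 intact basal array 3 members were called in basal cells, and without castrated luminal replicate 2 there were 5 in luminal cells. The fit with the covariate called 0.0819%, 0.0751%, 10.7% and 2.11% of all genes in the same order.

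**Figure D2:**
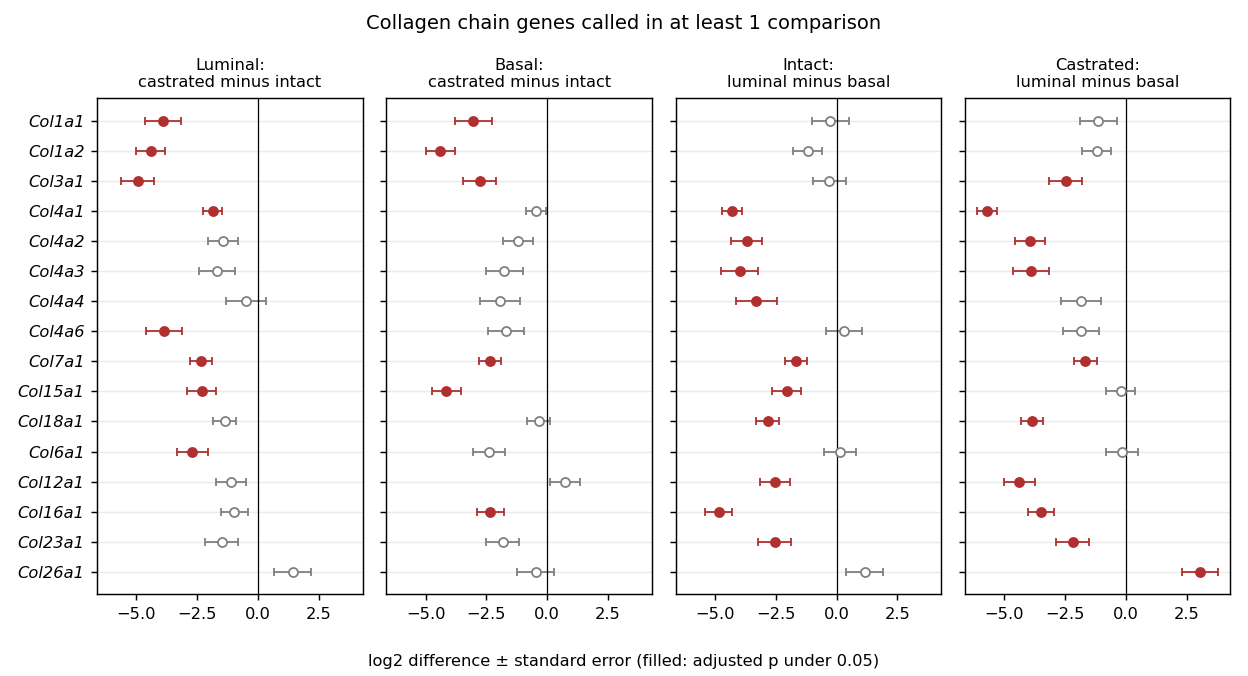
Log2 differences with standard errors are plotted for the 16 collagen chain genes called in at least 1 comparison (rows), in 4 panels, 1 for each comparison, filled where the adjusted p was under 0.05. In both castration panels every filled point lies left of 0, and among the genes plotted the luminal minus basal difference is lowest for Col16a1 in intact and for Col4a1 in castrated mice.

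The largest castration difference among the tested members was that of a fibrillar chain in either cell type, Col3a1 in luminal and Col1a2 in basal cells. Of the 9 fibrillar chains tested, 3 were lower after castration in luminal cells and the same 3, Col1a1, Col1a2 and Col3a1, in basal cells. Col1a2, the second chain of collagen I, read 849, 1237 and 1240.0 on the intact luminal and 59.8, 38.2 and 19.0 on the castrated luminal arrays. On basal arrays Col1a2 read 2559, 1294 and 4753 in intact and 78.5, 255 and 52.3 in castrated mice. Every castrated array lay below every intact array of its cell type, at 3.52% of the intact mean in luminal and 4.48% in basal cells. The log2 difference of Col1a2 was -4.40 ± 0.60 (adjusted p = 2.37e-04) in luminal and -4.39 ± 0.60 (adjusted p = 7.18e-04) in basal cells, and both calls held when any 1 array was left out.

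Col3a1 encodes the homotrimeric collagen III of reticular fibres. Its signals were 518, 508 and 1869.9 on intact luminal, 1.96, 3.82 and 35.3 on castrated luminal, 894, 986 and 1083 on intact basal and 59.0, 104 and 335 on castrated basal arrays. The castrated luminal arrays lay at the bottom of the range, and the third of the castrated basal arrays stood above the other two. The log2 difference with castration was -4.94 ± 0.68 (adjusted p = 2.70e-04) in luminal and -2.77 ± 0.68 (adjusted p = 0.0381) in basal cells. The basal call was lost without castrated luminal replicate 1 or 2, any 1 intact basal array, or castrated basal replicate 1 or 2 (adjusted p 0.0561 to 0.108). Castrated luminal cells also had less Col3a1 than castrated basal cells, by -2.48 ± 0.68 (adjusted p = 0.0159), a call lost without castrated luminal replicate 1 (0.0744) or 2 (0.0668) or castrated basal replicate 3 (0.0793).

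Col1a1, the major chain of collagen I, read 606, 288 and 855 on intact luminal and 5.95, 33.9 and 29.3 on castrated luminal arrays. Its basal signals were 966, 476 and 573 in intact and 132, 157 and 4.25 in castrated mice, so that the groups did not overlap in either cell type and 1 castrated basal array was near 0. The log2 differences were -3.90 ± 0.75 (adjusted p = 0.00442) in luminal and -3.03 ± 0.75 (adjusted p = 0.0407) in basal cells. The basal call was lost without intact luminal replicate 1, any 1 castrated luminal array, any 1 intact basal array, or castrated basal replicate 3 (adjusted p 0.0565 to 0.115). It was also lost with the replicate number as a block (adjusted p = 0.0574). A second Col1a1 probe set gave a basal log2 difference of -5.97 ± 0.58 (adjusted p = 1.69e-05).

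Col5a1 and Col5a2 encode chains of collagen V, which nucleates collagen I fibrils. Col5a1 signals were 99.0, 99.8 and 101 on intact luminal, 39.5, 41.1 and 29.0 on castrated luminal, 449, 156 and 157 on intact basal and 83.2, 94.2 and 83.3 on castrated basal arrays. Castrated arrays were below intact arrays in both cell types, yet the log2 differences of -1.15 ± 0.56 (adjusted p = 0.276) in luminal and -1.23 ± 0.56 (adjusted p = 0.264) in basal cells did not pass. Col5a2 showed log2 differences of -2.02 ± 0.69 (adjusted p = 0.104) and -2.12 ± 0.69 (adjusted p = 0.113), likewise not called. Col24a1 and Col11a1, chains of developing bone and cartilage, were not tested, and Col2a1, the cartilage fibril chain, Col5a3, Col11a2 and Col27a1 passed in no comparison. A second probe set of Col27a1 was called in basal cells after castration, at -2.30 ± 0.54 (adjusted p = 0.0362), as was the mean of its probe sets (adjusted p = 0.0382), against -2.17 ± 0.86 (adjusted p = 0.197) for the chosen probe set. Between luminal and basal cells of intact mice no fibrillar chain was called at its chosen probe set, and none had an unadjusted p under 0.05. The intact luminal mean of Col1a1 was 86.8% of the intact basal mean, and that of Col3a1 was 97.8%. For Col1a2 it was 38.6%, for Col5a1 39.3% and for Col5a2 209%. These values are for the probe set of highest mean: the second Col1a1 probe set read 465, 260 and 628 on intact luminal and 1756, 1419 and 1160 on intact basal arrays, without overlap, a difference of -1.71 ± 0.58 (adjusted p = 0.0511) that missed the threshold.

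The starts of Col1a2 and Col3a1 are shown because these chains fell together in both cell types. The 250 bases upstream of each RefSeq transcript start (mouse build GRCm38.p6, plus strand, 5′ to 3′) are printed with capitals for the words TATAA, the CCAAT box and the GGGCGG box. Each was searched on both strands, and the TATAA matches of Col3a1 on opposite strands overlap each other.
Col1a2, chr6:4505368-4505617: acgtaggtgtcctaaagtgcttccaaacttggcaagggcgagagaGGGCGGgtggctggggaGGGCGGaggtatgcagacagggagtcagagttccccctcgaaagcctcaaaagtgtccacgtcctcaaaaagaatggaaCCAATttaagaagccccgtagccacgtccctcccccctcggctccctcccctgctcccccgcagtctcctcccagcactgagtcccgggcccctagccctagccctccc
Col3a1, chr1:45311288-45311537: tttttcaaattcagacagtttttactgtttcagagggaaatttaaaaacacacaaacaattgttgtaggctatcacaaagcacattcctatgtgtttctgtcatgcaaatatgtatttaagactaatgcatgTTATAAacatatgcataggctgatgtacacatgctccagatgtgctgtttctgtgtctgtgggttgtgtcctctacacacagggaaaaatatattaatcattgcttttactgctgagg
The Col1a2 window held 1 CCAAT, starting 109 bases before the transcript start, and 2 copies of GGGCGG, and the Col3a1 window held neither of those words. Over 32817 promoter windows of this length, 22.8% held TATAA, 33.8% CCAAT and 32.7% GGGCGG; of the 35 windows of the 32 collagen genes in the table, 17.1%, 34.3% and 60.0% did. AGAACA, the half-site of androgen and glucocorticoid receptor elements, was in none of the 6 windows printed in these paragraphs, in 5.71% of the collagen windows and in 16.1% of all windows.

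**Figure D3:**
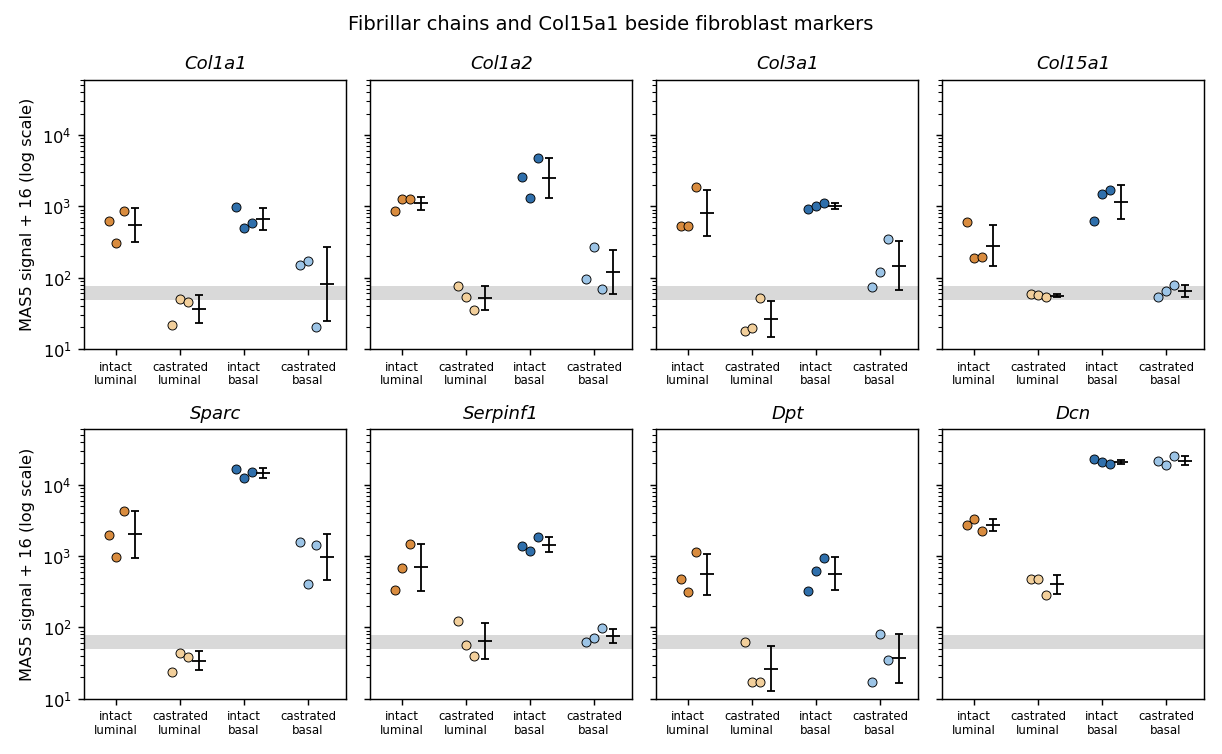
Signal + 16 (log axis) of Col1a1, Col1a2, Col3a1 and Col15a1 (upper row) and of the fibroblast markers Sparc, Serpinf1, Dpt and Dcn (lower row) is plotted for the 3 arrays of each group, with the mean and standard deviation of the log2 values as a bar; the grey band covers the dim levels of the 12 arrays. All castrated luminal points of the collagens lie within or below the band, whereas castrated basal points of Col1a1, Col1a2 and Col3a1 reach well above it, and basal Dcn lies far above it in both conditions.

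Some fibroblast markers were lower after castration as well. Of 16 markers holding no collagen, 7 were lower and none higher in luminal cells (2.96% of all genes lower; Dcn, Sparc, Mgp, Dpt, Serpinf1, Gas1 and Mmp2) and 3 were lower and none higher in basal cells (1.50% of all genes lower; Sparc, Serpinf1 and Dpt), so that 9 and 13 did not pass. Sparc, a collagen-binding matrix protein, differed by -5.90 ± 0.54 (adjusted p = 5.12e-06) in luminal and -3.93 ± 0.54 (adjusted p = 8.85e-04) in basal cells on the log2 scale. Their summed signal was 7518 to 15633 on intact luminal, 795 to 1096 on castrated luminal, 41968 to 51290.4 on intact basal and 24448 to 29673 on castrated basal arrays. Dcn, the fibril-binding proteoglycan decorin, made up most of the castrated basal sum with 21299, 19296 and 25683, compared with 22817, 20728 and 19696 in intact basal cells. Without Dcn, a choice made after seeing the data, the sum was 4203 to 13368, 528 to 633, 21239 to 28474 and 3990 to 5152 in the same order. No marker was dim on all 3 intact arrays of either cell type, whereas 8 of 16 were on all 3 castrated luminal and 3 of 16 on all 3 castrated basal arrays; none read exactly 0. Relative to the log2 mean of these markers on the same array, the basal minus luminal difference of Col1a2 was 0.11 (pooled SD 0.93) in intact and -0.69 (pooled SD 0.68) in castrated mice. For Col1a1 this difference was -0.81 (pooled SD 0.52) and -0.77 (pooled SD 1.19), and for Col3a1 it was -0.77 (pooled SD 0.43) and 0.58 (pooled SD 1.17). With the marker level as a covariate the castration difference of Col1a2 was -3.87 ± 1.86 (adjusted p = 0.515) in luminal and -4.03 ± 1.32 (adjusted p = 0.193) in basal cells, neither past the threshold. The mean log2 marker level was 5.35 to 5.64 on castrated luminal, 7.14 to 7.56 on castrated basal, 7.59 to 8.68 on intact luminal and 8.72 to 9.24 on intact basal arrays. Each castrated luminal array had this mean below its dim level, which was 5.62 to 5.68 on the same scale. Every ratio difference given here for castrated mice therefore rests on luminal markers near the floor. No groups overlapped, so marker level cannot be told apart from castration or from cell type in that fit, and this limit holds for every covariate value given here. The part of fibroblast RNA in the fibrillar signal was not tested further.

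Type IV chains were called more often between cell types than with castration, as were all tested genes. Of all genes, 19.5% were called between intact and 18.4% between castrated cell types. With castration 5.86% were called in luminal and 2.62% in basal cells. In intact mice 4 of 6 (Col4a1, Col4a2, Col4a3 and Col4a4) were lower in luminal than in basal cells, and 3 of them, all but Col4a4, in castrated mice. Col4a1 and Col4a2, the chains of the ubiquitous trimer, had the luminal signal at 4.86% and 6.48% of the basal mean in intact and at 1.72% and 3.91% in castrated mice. In basal cells limma called no type IV chain with castration, while 3 were lower at an unadjusted p under 0.05. In luminal cells Col4a1 and Col4a6 were called lower, and 4 chains were lower at an unadjusted p under 0.05 in that fit. All 6 log2 differences with castration were below 0 in both cell types, with medians of -1.57 in luminal and -1.45 in basal cells. From Col4a1 to Col4a6 the castrated basal means were 71.9%, 37.8%, 38.0%, 34.4%, 68.6% and 46.3% of the intact basal means. Of the 16 fibroblast markers, 3 were lower in luminal than in basal cells of intact (Dcn, Sparc and Mgp; 8.45% of all genes lower) and 6 of castrated mice (7.22%), none was higher, and 13 and 10 did not pass. At an unadjusted p under 0.05 in the limma fit 1 was higher in intact luminal cells.

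Col4a1 read 6271, 4653 and 6263 on intact basal and 3634, 4189.8 and 4537 on castrated basal arrays. On luminal arrays it read 199.7, 345 and 290.1 in intact and 123, 32.4 and 56.9 in castrated mice. All basal arrays were above all luminal arrays, and castrated luminal arrays were below intact ones. The luminal minus basal difference was -4.31 ± 0.41 (adjusted p = 1.49e-06) in intact and -5.71 ± 0.41 (adjusted p = 9.08e-08) in castrated mice. With castration the log2 difference was -1.87 ± 0.41 (adjusted p = 0.0103) in luminal cells, a call lost without castrated luminal replicate 2 (0.0616), and -0.47 ± 0.41 (adjusted p = 0.599) in basal cells.

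Col4a2 signals were 74.0, 36.6 and 162 on intact luminal, 29.6, 27.6 and 4.97 on castrated luminal, 927, 746 and 2529 on intact basal and 379, 649 and 562 on castrated basal arrays. As for Col4a1, no luminal array reached the lowest basal one, and the cell type differences were -3.69 ± 0.62 (adjusted p = 4.67e-04) and -3.94 ± 0.62 (adjusted p = 2.63e-04). The genes are arranged head to head on chromosome 8, with RefSeq starts on opposite strands that overlap by 21 bases, so their upstream windows lie within each other's transcripts and are not printed. With the fibroblast marker level as a covariate the luminal minus basal difference of Col4a1 was -4.23 ± 0.66 (adjusted p = 8.36e-04) in intact and -5.58 ± 1.00 (adjusted p = 0.0107) in castrated mice. For Col4a2 neither difference passed in that fit. They were -3.09 ± 1.01 (adjusted p = 0.0616) in intact and -2.87 ± 1.53 (adjusted p = 0.352) in castrated mice. Relative to the fibroblast markers of the same array, Col4a1 was higher in basal than in luminal cells by 3.23 (pooled SD 0.58) in intact and 3.81 (pooled SD 0.55) in castrated mice, and Col4a2 by 2.62 (pooled SD 0.91) and 2.05 (pooled SD 0.49). On the castrated basal arrays 9 of the 16 fibroblast markers lay above the dim level on all 3 and 3 were dim on all 3, and of 13 endothelial markers 2 lay above it and 3 were dim on all 3. The part of these cells in the Col4a1 and Col4a2 signal was not tested.

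The alpha 3 and alpha 4 chains form a trimer with alpha 5 in specialised basement membranes. Col4a3 signals were 1294, 1418 and 1240.3 on intact basal and 101, 676 and 725 on castrated basal arrays, against 19.5, 90.6 and 143 and 34.9, 3.24 and 2.19 on the luminal arrays. Every basal array exceeded every luminal array of the same condition, and the cell type difference was -3.98 ± 0.75 (adjusted p = 0.00119) in intact and -3.91 ± 0.75 (adjusted p = 0.00135) in castrated mice. Col4a4 read 814, 728 and 587 on intact basal and 81.1, 7.0 and 160.2 on intact luminal arrays, a difference of -3.30 ± 0.83 (adjusted p = 0.00932) that was lost without intact luminal replicate 2 (0.0564). In castrated mice its luminal signals of 13.6, 22.1 and 113 overlapped the basal ones of 71.2, 540.1 and 121. The difference there was -1.84 ± 0.83 (adjusted p = 0.140), not called. It was called with the mean of the Col4a4 probe sets (-1.56 ± 0.52, adjusted p = 0.0475) and with array weights (adjusted p = 0.0496).

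Col4a6, whose chain joins alpha 5 in epithelial basement membranes, went another way. Its signals were 1999, 1290.2 and 1139.6 on intact luminal and 77.1, 54.8 and 138 on castrated luminal arrays, with no overlap. In basal cells they were 628, 1541 and 1628 in intact and 425, 1267 and 66.9 in castrated mice, where the groups overlapped. The castration difference was -3.85 ± 0.73 (adjusted p = 0.00385) in luminal and -1.71 ± 0.73 (adjusted p = 0.228) in basal cells; their difference of -2.14 ± 1.04 (adjusted p = 0.406) did not pass. A second probe set of Col4a6 gave -3.47 ± 0.50 (adjusted p = 4.21e-04) in luminal cells. Intact luminal and basal cells overlapped, with a difference of 0.29 ± 0.73 (adjusted p = 0.833). In castrated mice the difference was -1.85 ± 0.73 (adjusted p = 0.0921), and that of the second probe set was -1.50 ± 0.50 (adjusted p = 0.0495). This castrated difference was called without castrated basal replicate 3 (-2.91 ± 0.57, adjusted p = 0.00238) and without all 4 arrays of replicate 3 (adjusted p = 0.00259). Array weights (adjusted p = 0.00390) and the mean of the Col4a6 probe sets (adjusted p = 0.0212) also gave a call. Col4a5, its partner, was called in no comparison at its chosen probe set. Its signals were 273, 138 and 175 on intact luminal and 154, 152 and 243 on castrated luminal arrays. Basal signals were 364, 280.3 and 341 in intact and 271, 206 and 199.6 in castrated mice. All intact basal arrays lay above the intact luminal and the castrated basal ones. The luminal castration difference of Col4a5 was -0.06 ± 0.49 (adjusted p = 0.961). A second Col4a5 probe set read 89.7, 142 and 130 on intact luminal and 452, 194 and 383 on intact basal arrays. In castrated mice it read 205, 153 and 204 on luminal and 222, 543 and 95.7 on basal arrays.

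Col4a5 and Col4a6 are also neighbours in head-to-head order, on chromosome X, with RefSeq starts 1343 bases apart in GRCm38.p6. Their upstream windows are shown because the genes are adjacent and were called differently in luminal cells; capitals mark the same words on either strand.
Col4a5, chrX:141475169-141475418 (plus strand): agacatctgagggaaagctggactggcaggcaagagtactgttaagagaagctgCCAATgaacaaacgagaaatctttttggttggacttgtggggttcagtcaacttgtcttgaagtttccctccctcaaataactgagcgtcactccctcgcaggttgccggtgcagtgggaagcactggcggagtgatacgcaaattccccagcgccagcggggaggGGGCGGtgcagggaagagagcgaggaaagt
Col4a6, chrX:141474077-141474326 (minus strand): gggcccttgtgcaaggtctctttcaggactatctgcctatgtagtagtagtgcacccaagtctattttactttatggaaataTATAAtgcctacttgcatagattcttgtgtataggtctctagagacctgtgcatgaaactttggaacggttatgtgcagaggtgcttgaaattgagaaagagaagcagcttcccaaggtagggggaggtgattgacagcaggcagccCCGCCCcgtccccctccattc
The Col4a5 window held 1 CCAAT and 1 GGGCGG, and the Col4a6 window held 1 TATAA and 1 GGGCGG, the last on the opposite strand.

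**Figure D4:**
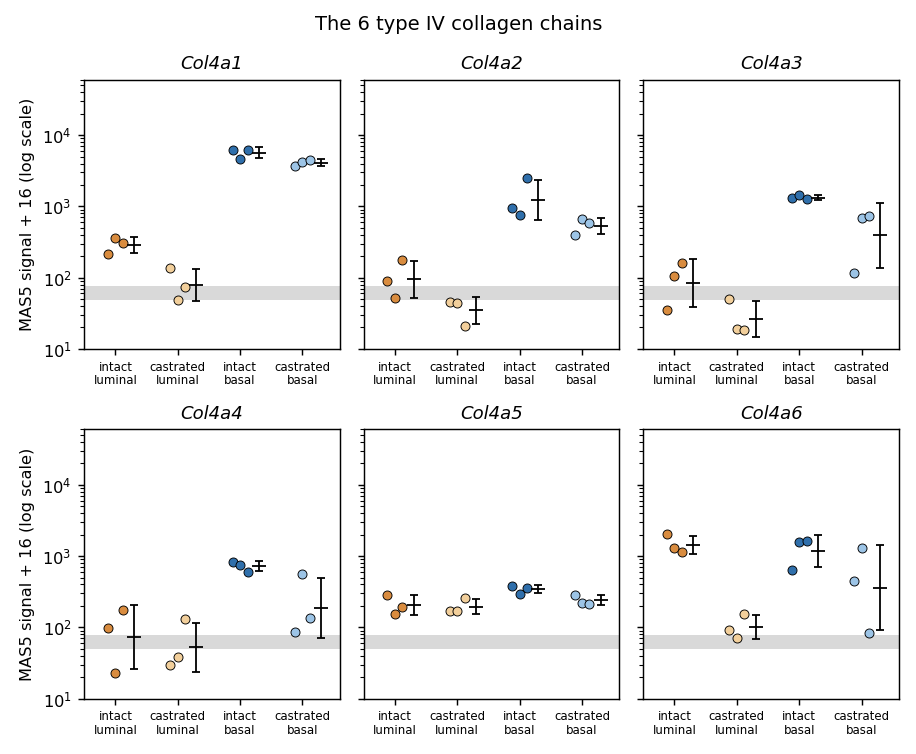
Signal + 16 (log axis) of the 6 type IV chains is plotted for the 3 arrays of each group, with the mean and standard deviation of the log2 values as a bar; the grey band covers the dim levels of the 12 arrays. Col4a1, Col4a2 and Col4a3 lie higher in basal than in luminal cells of the same condition. Col4a5 lies above the band on all 12 arrays, and castrated luminal Col4a6 lies below intact luminal Col4a6.

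All 3 of the other chains of the basement membrane zone were lower in intact luminal than in intact basal cells. Col7a1, the collagen of anchoring fibrils, was lower after castration in both cell types and lower in luminal cells in both conditions. Its signals were 488, 1260.2 and 599 on intact luminal, 140.2, 125 and 121 on castrated luminal, 1475, 3052 and 2733 on intact basal and 423, 629 and 322 on castrated basal arrays. No castrated array reached the lowest intact array of its cell type. The castration difference was -2.34 ± 0.46 (adjusted p = 0.00487) in luminal and -2.35 ± 0.46 (adjusted p = 0.0133) in basal cells, the basal call being lost without intact basal replicate 2 (0.0529). Between cell types the difference was -1.66 ± 0.46 (adjusted p = 0.0164) in intact and -1.66 ± 0.46 (adjusted p = 0.0172) in castrated mice. The intact call was lost without intact luminal replicate 1 or intact basal replicate 2 or 3, and the castrated one without castrated luminal replicate 2 or 3 or castrated basal replicate 2 (0.0547 to 0.0767).

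Col15a1, the chain of a basement membrane proteoglycan, read 606, 1464 and 1684 on intact basal and 37.9, 49.2 and 62.2 on castrated basal arrays. The luminal signals were 584, 169.9 and 179 in intact and 43.0, 40.4 and 36.8 in castrated mice, so both castrated groups ended at or near the dim level. The basal difference of -4.16 ± 0.60 (adjusted p = 0.00123) held whichever array was left out. The luminal one of -2.32 ± 0.60 (adjusted p = 0.0285) was lost without intact luminal replicate 1 or any 1 castrated luminal array (0.0892 to 0.122). In intact mice the luminal minus basal difference of -2.06 ± 0.60 (adjusted p = 0.0221) was lost without intact luminal replicate 2 or 3 or intact basal replicate 2 or 3 (0.0688 to 0.0914). In castrated mice the luminal mean was 80.5% of the basal mean, and the difference was -0.22 ± 0.60 (adjusted p = 0.849).

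Col18a1, whose chain carries the endostatin fragment, was called between cell types, and with castration only under some alternative settings. It read 5099, 3141 and 4019.6 on intact basal, 1730.2, 3932 and 4500.4 on castrated basal, 584, 312 and 892 on intact luminal and 115, 275 and 257 on castrated luminal arrays. Every basal array exceeded every luminal array, with differences of -2.84 ± 0.46 (adjusted p = 3.37e-04) in intact and -3.85 ± 0.46 (adjusted p = 1.79e-05) in castrated mice. The castration difference was -0.36 ± 0.46 (adjusted p = 0.744) in basal and -1.37 ± 0.46 (adjusted p = 0.0983) in luminal cells, where the groups did not overlap. That luminal difference was called with the mean of its probe sets (-1.29 ± 0.35, adjusted p = 0.0400) and with array weights (adjusted p = 0.0390). It was also called without intact luminal replicate 2 (0.0474). Relative to the fibroblast markers Col18a1 was higher in basal cells by 1.76 (pooled SD 0.45) in intact and 1.96 (pooled SD 0.82) in castrated mice. With the marker level as a covariate its luminal minus basal difference passed in neither condition. It was -2.41 ± 0.75 (adjusted p = 0.0508) in intact and -3.09 ± 1.13 (adjusted p = 0.169) in castrated mice.

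Of the 8 fibril-associated chains tested, Col12a1 and Col16a1 were lower in luminal cells in both conditions. Col16a1, the chain of a homotrimer that links fibrils and cells, read 2397, 3109.6 and 3598 on intact basal and 405, 520.2 and 925 on castrated basal arrays. Luminal signals were 89.7, 45.0 and 162 in intact and 36.7, 17.5 and 70.0 in castrated mice. The basal groups did not overlap with each other or with the luminal groups. Cell types differed by -4.85 ± 0.55 (adjusted p = 9.68e-06) in intact and -3.48 ± 0.55 (adjusted p = 2.44e-04) in castrated mice. The castration difference in basal cells was -2.33 ± 0.55 (adjusted p = 0.0342), a call lost without castrated luminal replicate 1, any 1 intact basal array, or castrated basal replicate 1 or 2 (0.0560 to 0.0945). Beside the fibroblast markers, Col16a1 was higher in basal than in luminal cells by 3.77 (pooled SD 0.47) in intact and 1.59 (pooled SD 0.79) in castrated mice. With the marker level as a covariate the intact difference was -4.48 ± 0.89 (adjusted p = 0.00449). The castrated one was -2.84 ± 1.35 (adjusted p = 0.293) in that fit and was not called.

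Col12a1, whose collagen decorates fibrils under tension, read 478, 238 and 318 on intact basal and 728, 429 and 574 on castrated basal arrays. On luminal arrays it read 41.5, 119.6 and 11.6 in intact and 15.9, 13 and 7.64 in castrated mice. The castrated luminal arrays were all dim, and the luminal mean was 16.7% of the basal mean in intact and 2.11% in castrated mice. Cell types differed by -2.54 ± 0.62 (adjusted p = 0.00812) and -4.38 ± 0.62 (adjusted p = 9.63e-05), and with the marker level as a covariate by -3.75 ± 0.95 (adjusted p = 0.0187) and -6.50 ± 1.43 (adjusted p = 0.0283). Among its 3 other probe sets the castrated difference passed in each, while the intact difference passed in 1 and was 0.02 ± 0.65 (adjusted p = 0.990) in another. With castration its basal difference was 0.74 ± 0.62 (adjusted p = 0.584). The other fibril-associated chains, Col9a2, Col9a3, Col14a1, Col19a1, Col20a1 and Col22a1, passed in no comparison. Col22a1 came nearest, with a luminal minus basal difference of -1.68 ± 0.65 (adjusted p = 0.0825) in intact mice. Col14a1, known from fibroblasts, had a basal castration difference of -2.09 ± 0.65 (adjusted p = 0.0959), its castrated basal signals being 6.88, 3.88 and 3.67.

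Upstream windows of Col15a1 and Col16a1 are shown because both chains were lower in basal cells after castration, as were Col1a2 and Col3a1 above. Both windows are from the plus strand of chromosome 4 in GRCm38.p6, with the same words in capitals.
Col15a1, chr4:47207762-47208011: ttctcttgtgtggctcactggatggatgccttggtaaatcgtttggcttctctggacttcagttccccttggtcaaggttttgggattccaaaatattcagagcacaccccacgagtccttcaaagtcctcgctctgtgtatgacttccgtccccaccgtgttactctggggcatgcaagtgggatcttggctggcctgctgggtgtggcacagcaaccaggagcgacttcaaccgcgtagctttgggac
Col16a1, chr4:130047590-130047839: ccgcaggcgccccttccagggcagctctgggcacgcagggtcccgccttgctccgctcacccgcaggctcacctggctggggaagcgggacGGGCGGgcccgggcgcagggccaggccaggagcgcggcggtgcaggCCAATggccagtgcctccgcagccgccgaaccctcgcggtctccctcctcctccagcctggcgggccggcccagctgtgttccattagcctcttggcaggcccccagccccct
The Col15a1 window held none of the words searched, and the Col16a1 window held 1 CCAAT, starting 113 bases before the transcript start, and 1 GGGCGG.

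Type VI collagen forms beaded filaments around stromal cells, and 1 of its 4 tested chains, Col6a1, was called. It read 203, 70.4 and 198 on intact luminal, 7.15, 1.33 and 21.0 on castrated luminal, 253, 54.8 and 139.7 on intact basal and 7.12, 3.70 and 29.3 on castrated basal arrays. Every castrated array was dim and below every intact array. The luminal difference was -2.70 ± 0.65 (adjusted p = 0.0198) and the basal one -2.39 ± 0.65 (adjusted p = 0.0604), which passed with the replicate number as a block (adjusted p = 0.0470). The luminal call was lost without intact luminal replicate 1 or 3 or castrated luminal replicate 1 or 2 (0.0644 to 0.107). Col6a2 and Col6a3 were not called, with luminal castration differences of -0.65 ± 0.82 (adjusted p = 0.728) and -0.62 ± 0.75 (adjusted p = 0.710) and basal ones of -1.71 ± 0.82 (adjusted p = 0.290) and -1.73 ± 0.75 (adjusted p = 0.234). Between cell types no type VI chain was called, and none had an unadjusted p under 0.05.

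Among the remaining classes, Col23a1 and Col26a1 were called. Col23a1, a transmembrane collagen that binds integrin alpha 2 beta 1, read 438, 804 and 561 on intact basal, 171, 304 and 62.2 on castrated basal, 71.1, 67.6 and 133 on intact luminal and 74.1, 4.62 and 10.7 on castrated luminal arrays. Intact cell types were separate, with a difference of -2.54 ± 0.68 (adjusted p = 0.0140) that was lost without replicate 2 of either intact group (0.0510 and 0.0526). Castrated cell types overlapped, and the difference of -2.19 ± 0.68 (adjusted p = 0.0334) was lost without castrated luminal replicate 2 or 3 or castrated basal replicate 1 or 2 (0.0825 to 0.153). With the fibroblast marker level as a covariate it was 0.17 ± 1.58 (adjusted p = 0.973), in the other direction.

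Col26a1 was the only member called higher in luminal cells. Its signals were 186, 266 and 149 on castrated luminal and 18.7, 11.1 and 1.66 on castrated basal arrays, without overlap, a difference of 3.05 ± 0.75 (adjusted p = 0.00864). This call rests on 1 probe set. A second one was too dim to be tested. That probe set read 11.0, 1.44 and 3.34 on castrated luminal and 18.9, 43.1 and 1.19 on castrated basal arrays. In intact mice the chosen probe set read 3.33, 91.8 and 216 on luminal and 10.7, 15.1 and 37.4 on basal arrays, where the first luminal array lay below all basal ones. The intact difference was 1.15 ± 0.75 (adjusted p = 0.324) and the luminal castration difference 1.43 ± 0.75 (adjusted p = 0.321), neither past the threshold. The hexagonal network chains Col8a1 and Col8a2 passed in no comparison; Col8a1 ranged from 4.94 to 271 over the 12 arrays and Col8a2 from 2.36 to 101. Col13a1, a transmembrane chain, had 62.5 as its highest signal.

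No collagen chain gene differed in its castration response between luminal and basal cells in limma's interaction test, which called 1.15% of all genes. The lowest adjusted p was that of Col4a1, with a luminal minus basal difference in response of -1.40 ± 0.58 (adjusted p = 0.311). At an unadjusted p under 0.05 there were 3 members: Col4a1, Col3a1 (-2.17 ± 0.96 (adjusted p = 0.354)) and Col15a1 (1.84 ± 0.85 (adjusted p = 0.376)). The median over the 35 members was 0.05, and over all genes 0.03. The interval of these differences is wide, with standard errors of 0.58 to 0.96 for the 3 named genes, and their sizes do not show that the cell types respond alike.

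**Figure D5:**
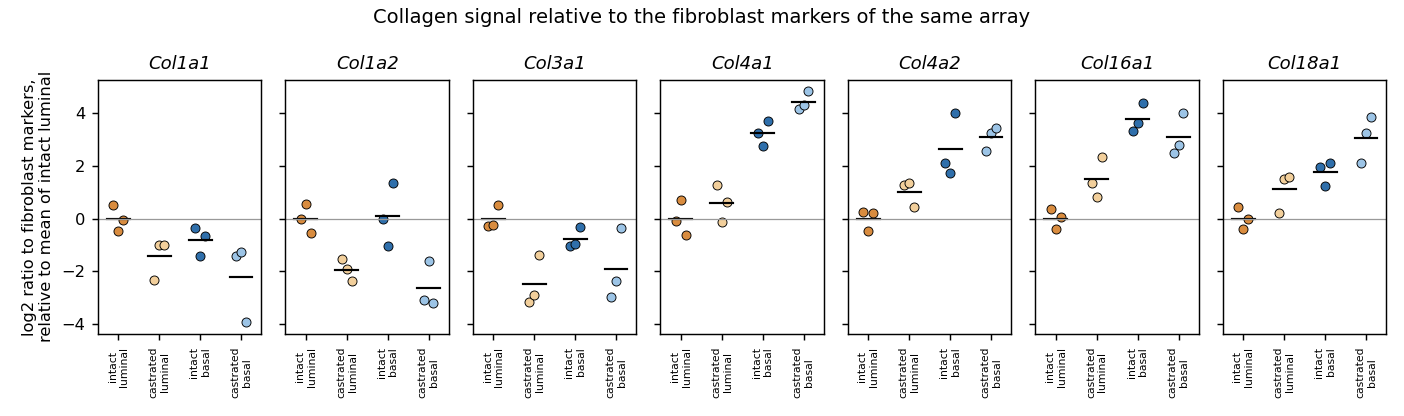
The log2 value of 7 collagen chain genes minus the mean log2 value of the 16 fibroblast markers on the same array is plotted relative to the intact luminal mean, with 3 arrays per group and a bar at the mean. Points of Col4a1, Col4a2, Col16a1 and Col18a1 lie higher in basal than in luminal cells of the same condition, and those of Col1a2 lie lower in castrated than in intact cells of either type; for Col3a1 this holds in luminal cells, and the basal groups overlap.

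Markers of other cell types were also counted. Of 8 smooth muscle markers tested, 1 (Myocd) was lower after castration in luminal cells and none was called in basal cells (2 at an unadjusted p under 0.05 in the limma fit, both lower). Over all 10 of the list on the array the summed signal was 714 to 2483 on intact luminal, 275 to 465 on castrated luminal, 3489 to 5479 on intact basal and 3481 to 5736 on castrated basal arrays. None of 7 pericyte and none of 11 endothelial markers was called with castration by limma; at an unadjusted p under 0.05, 2 of each were lower in luminal cells, and 1 pericyte and 3 endothelial markers in basal cells. The sum of all 13 endothelial markers was 720 to 1664, 381 to 404, 1007 to 1706 and 758 to 935 in the same order. Sums of all 8 pericyte markers were 576 to 1035, 341 to 375, 801 to 1865 and 521 to 805. All 14 leukocyte markers summed to 10348 to 13217 on intact luminal and at most 3164 elsewhere. However, 2 of the 14 lay above the dim level on all 3 intact luminal arrays, against 4 on all 3 intact basal ones. Of 13 tested, 1 was higher and 1 lower in luminal than in basal cells of intact mice, with a median log2 difference of -0.02. After castration 1 of the 13 (Cd52) was lower in luminal cells and 1 (Lyz2) higher in basal cells. Of 3 Schwann and nerve markers tested, Ncam1 was lower and Mbp higher in luminal cells after castration. The part of these cells in the collagen signal was not tested.

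Collagen chains are hydroxylated and glycosylated in the endoplasmic reticulum, folded with the chaperone HSP47, exported by large carriers, cleaved and cross-linked outside the cell, and bound by integrins and DDR receptors. Serpinh1, which encodes HSP47, read 389.9, 172 and 568 on intact luminal, 40, 39.5 and 35.8 on castrated luminal, 1255, 1963 and 2049 on intact basal and 3566, 563 and 1758 on castrated basal arrays. The castrated luminal arrays were the lowest and the basal arrays the highest, apart from 1 castrated basal array within the intact luminal range. Its castration difference was -2.70 ± 0.59 (adjusted p = 0.0105) in luminal cells. The luminal minus basal difference was -2.29 ± 0.59 (adjusted p = 0.0111) in intact and -4.83 ± 0.59 (adjusted p = 2.19e-05) in castrated mice. Serpinh1 was the only one of the 9 chaperone and export genes tested that was called lower in luminal cells. In intact mice 4 were higher (11.0% of all genes higher, 8.45% lower), and in castrated mice 2 were (11.2% and 7.22%). Of the 9 chaperone and export genes tested, Serpinh1 and Mia3 were lower and Mia2 was higher in luminal cells after castration, and none was called in basal cells, nor had one an unadjusted p under 0.05 there. Mia3 and Mia2 encode the export receptors TANGO1 and cTAGE5; their luminal differences were -1.44 ± 0.26 (adjusted p = 0.00221) and 2.27 ± 0.51 (adjusted p = 0.0126). Between cell types, 1 of 13 hydroxylase and glycosyltransferase genes was higher and 1 lower in luminal cells of intact mice. In castrated mice 3 were higher and none lower. With castration none of the 13 was called in luminal cells (3 at an unadjusted p under 0.05) and 1, the prolyl hydroxylase subunit P4ha3, was lower in basal cells (-2.51 ± 0.56 (adjusted p = 0.0274)). P4ha3 also differed in its response between the cell types, by 4.27 ± 0.79 (adjusted p = 0.0120), its castrated luminal signals of 305, 269 and 363 lying above the intact ones of 86.1, 76.7 and 78.3. Of 10 propeptidase and cross-linking genes, 1 was lower with castration in basal cells, the peroxidasin gene Pxdn (-2.85 ± 0.73 (adjusted p = 0.0470)), whose enzyme cross-links collagen IV, and none was called in luminal cells (5 at an unadjusted p under 0.05). Between cell types 4 of the 10 were lower in luminal cells of intact and 1 of castrated mice, and none was higher.

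The partners of type IV collagen in the basement membrane are laminins, nidogens, perlecan and agrin. Of 14 basement membrane partners, 8 were lower in luminal than in basal cells of intact mice and 7 in castrated mice, and none was higher, also at an unadjusted p under 0.05. Lamb3 and Lama3, chains of laminin 332, differed by -3.99 ± 0.60 (adjusted p = 1.68e-04) and -4.11 ± 0.88 (adjusted p = 0.00298) in intact mice; both belong to the basal epithelial marker list as well. Nid1, the nidogen that bridges laminin and collagen IV, differed by -2.39 ± 0.75 (adjusted p = 0.0335) in intact and -3.59 ± 0.75 (adjusted p = 0.00270) in castrated mice. With castration 1 partner was lower in luminal cells (Lamb1, -2.72 ± 0.62 (adjusted p = 0.0136)) and 1 in basal cells (Lama2, -2.87 ± 0.73 (adjusted p = 0.0449)). Of 8 collagen receptors, the integrin subunit gene Itga2 was the only one called with castration: it rose in luminal cells from 32.0, 353 and 42.1 to 1169, 1487 and 1244, by 3.70 ± 0.65 (adjusted p = 0.00213). Its partner Itgb1 was lower in luminal than in basal cells, with differences of -1.35 ± 0.25 (adjusted p = 0.00117) in intact and -1.42 ± 0.25 (adjusted p = 7.53e-04) in castrated mice. Of 10 degradation genes, Mmp2, a gelatinase also counted among the fibroblast markers, was lower in luminal cells after castration (-3.10 ± 0.65 (adjusted p = 0.00747)), and the inhibitors Timp2 and Timp3 were higher (0.83 ± 0.22 (adjusted p = 0.0336) and 0.75 ± 0.21 (adjusted p = 0.0467)). None was called in basal cells (2 at an unadjusted p under 0.05).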

How the data were processed

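Per the labels' protocols, RNA from the sorts was extracted (RNeasy Micro), amplified (NuGEN Pico) and hybridised to Affymetrix arrays. The deposited signal intensity was computed by the authors with MAS5, per the submitters' processing notes, on a linear scale; trimming 2% from each end of an array left a mean of 500.0. Array medians were 57.7 to 99.95, and precision is limited by 3 arrays per group. Detection calls and the version of MAS5 were not used here or not given in the sources used here.

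Of 45101 probe sets, 64 controls were left out; 34945 had 1 gene symbol in the platform annotation, 932 several and 9160 none there, and Entrez identifiers of 34741 matched the RefSeq gene table (GRCm38.p6), changing no symbol. Values were transformed as log2(signal + 16). A probe set was kept if it exceeded its array's 40th percentile on 3 or more arrays; per gene the one of highest mean was used, giving 14645 genes. The 4 group means were fitted on all 12 arrays with limma 3.58.1 (lmFit, eBayes with trend, 8 residual degrees of freedom) in R 4.3.3, and p-values were adjusted by Benjamini-Hochberg over all genes tested and called at 0.05. Castrated was set against intact in each cell type, luminal against basal in each condition, and the castration responses against each other. The fit was tested on simulated data. Plots were drawn with matplotlib 3.10.9 and tables with pandas 2.3.3 under Python 3.11.15.

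The members and lists (8 collagen classes, 6 collagen pathway lists and 8 cell type marker lists) were chosen with earlier results of these data known. Named genes were every member called in a comparison, 16 members set in advance, the members of highest and lowest group mean in a class, and up to 4 genes of a list per comparison with the lowest adjusted p. Col14a1, Col22a1 and the second probe sets were described after their values were seen. The design text describes 3 replicate sets with paired intact animals, so the replicate number was tried as a block; with group means subtracted, the correlation across genes between same-numbered arrays was -0.0072 to 0.0258. Promoter windows came from a RefSeq table of GRCm38.p6, which held 32 of the 41 members. Alternatives were quantile normalization, median centring, 1 or 64 added before the logarithm, no filter or one on 6 arrays, other handling of probe sets, only the 2 groups compared, no trend, array weights, the blocks, a fibroblast covariate and leaving out arrays; testing every probe set singly and the marker sum without Dcn were chosen after seeing the data.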

Additional observations from a re-analysis of the deposited data

How the results depend on the processing

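Leaving out 1 array at a time gave 5 to 10 members called with castration in luminal cells, 3 to 8 in basal cells, 7 to 10 between intact and 7 to 11 between castrated cell types, and 0 in the interaction. With all 4 arrays of replicate 3 left out, 5 were called in luminal cells after castration. The fibroblast marker level as a covariate left 0, 0, 3 and 2 calls, and the castrated luminal minus basal difference of Col23a1 turned to 0.17 in that fit; no groups overlap in this level, and the cause of these losses was not tested. With pericyte and smooth muscle markers in place of fibroblast markers, the castrated basal minus luminal difference of the ratio was 4.44 for Col4a1 and 2.68 for Col4a2. The replicate block gave 8, 6, 10, 10 and 0 calls, losing Col1a1 and gaining Col6a1 in basal cells, and it changed no other call. Median centring moved the median of all genes from -0.09 to 0.12 in luminal and from -0.11 to 0.19 in basal cells after castration, and lost 3 of the 34 calls (Col15a1 in luminal, Col3a1 and Col16a1 in basal cells). With 1 added before the logarithm Col1a1, Col3a1 and Col16a1 were no longer called in basal cells, and with 64 Col3a1 and Col23a1 no longer between castrated cell types. Of the 34 calls, none turned direction under any alternative run apart from Col23a1. Members near the dim level carry little signal, so their differences depend on the constant added: Col3a1 in luminal cells differed by -6.62 with 1 and -3.50 with 64.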
